A study of Mus musculus with 24 samples.

Results

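The 200 most abundant XLOC loci were described in projection neurons sorted from the cortex of mice of the CD1 strain. XLOC identifiers are the codes that the Cufflinks tools assign to assembled loci, and the deposited table lists these loci by code with no gene name. The rule took the entries whose name starts with XLOC_, ranked them by their highest value over the 12 groups and kept the first 200 of 4438 such loci, in a table of 32310 entries. The members were therefore chosen on the same values that are described here, and their high maxima are not a finding. The table pairs the codes with no coordinates, exons or sequence, so the position and structure of the loci are not given here.

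Loci that an assembly reports outside the named genes can hold long noncoding RNAs, unannotated exons or ends of known genes, or pieces of either. Long noncoding RNAs are transcripts with little or no coding capacity, many of which are spliced and polyadenylated like messenger RNAs. In the developing cortex a number of them are known to be restricted to particular cell types or stages, more tightly than most coding genes. Nothing in the table says which of these kinds a given XLOC locus is.

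The study set 3 classes of cortical projection neuron against each other over development. Callosal neurons project across the corpus callosum to the other hemisphere, subcerebral neurons reach the brainstem and spinal cord, and corticothalamic neurons project to the thalamus. Each class was sorted by FACS at embryonic days 15, 16 and 18 (E15, E16, E18) and at postnatal day 1 (P1), with 2 libraries for each of the 12 groups and no genetic change or treatment named in the labels. The table holds 1 value per group, so it shows no spread between libraries. The values were taken to be FPKM, a read density scaled to transcript length and to the mapped fragments of a library, which can be compared between loci of different length. The depth behind each value is unknown. Throughout, 4 values of a class are given in the order E15, E16, E18 and P1.

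The labelled classes were checked against their marker genes. The summed FPKM of 16 callosal neuron genes lay between 983 and 1530.3 in callosal neurons, against 182 to 219 in subcerebral and 251 to 295 in corticothalamic neurons. The summed level of 11 subcerebral genes lay between 897 and 1253 FPKM in subcerebral neurons, against 198 to 321 in callosal and 354 to 462 in corticothalamic neurons. The summed level of 11 corticothalamic genes lay between 1036 and 1243 FPKM in corticothalamic neurons and between 119 and 174 FPKM in callosal neurons. In subcerebral neurons it was 688 FPKM at E15, 297 at E16, 163 at E18 and 132 at P1, so the E15 subcerebral group stood apart from the later subcerebral groups on this list. Tle4, a corepressor that marks corticothalamic neurons, was listed at 65.3, 22.95, 11.6 and 11.3 FPKM in subcerebral neurons and at 212, 194, 192 and 198 FPKM in corticothalamic neurons. The counts of calls in the class comparisons and of loci highest in subcerebral neurons are therefore also given without E15 below. Results of single loci are not given without E15. In bulk RNA, fewer cells of a type and less RNA per cell cannot be told apart.

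The loci spanned a wide range of levels. Their highest group value ran from 8.67 to 7612 FPKM with a median of 18.4 FPKM, beside a median of 15.5 FPKM over all 13946 features tested. Of the 200, 6 loci reached 1000 FPKM, 17 lay between 100 and 1000, 67 between 20 and 100, and 110 under 20. The loci took between 3.92% of the summed FPKM of a group, in P1 corticothalamic neurons, and 6.21%, in E15 callosal neurons. At the limit of the rule, XLOC_000556 reached 8.75, XLOC_002824 8.74 and XLOC_000705 8.67 FPKM inside it, and XLOC_003859 reached 8.64, XLOC_001714 8.59 and XLOC_000933 8.55 FPKM just outside it. The loci on either side of the limit thus had almost the same maximum.

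Most of the loci were present in every group. Of the 200, 179 had at least 1 FPKM in all 12 groups, and XLOC_002293 and XLOC_002824 reached that level in exactly 2 groups. The ratio of the highest to the lowest group was under 2 for 44 loci and at least 10 for 30 loci, with a median of 2.82 over the 198 loci that have no 0. The ratio was smallest for XLOC_003092, at 1.32, followed by XLOC_000903, XLOC_004616, XLOC_002161 and XLOC_000101. XLOC_003092 had 8.90, 8.56, 8.66 and 9.91 FPKM in callosal, 9.93, 8.46, 7.84 and 9.84 FPKM in subcerebral and 10.1, 9.29, 9.70 and 10.4 FPKM in corticothalamic neurons, and all 12 groups lay close together. The 5 largest ratios were those of XLOC_003074, at 402, XLOC_002020, XLOC_004405, XLOC_003042 and XLOC_003544. A pair of loci was listed at 0 in a group, XLOC_003087 in E15 callosal neurons and XLOC_002293 in E15 subcerebral neurons. XLOC_002293 had 0.0154, 0.0585, 0.51 and 0.637 FPKM in callosal, 0, 0.0818, 3.60 and 9.52 FPKM in subcerebral and 0.017, 0.0155, 0.0527 and 0.0552 FPKM in corticothalamic neurons, so its level stood out in subcerebral neurons at E18 and P1.

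**Figure D1:**
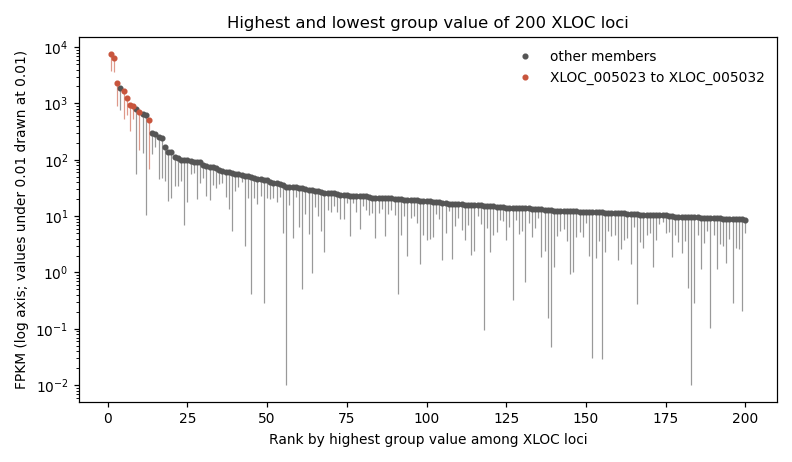
Highest (point) and lowest (end of the line) group value of each of the 200 XLOC loci, in FPKM on a log axis, against the rank by highest value. Loci with codes from XLOC_005023 to XLOC_005032 are in red and hold 8 of the 10 highest ranks, while most loci lie between 8.67 and 100 FPKM.

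The top of the list was made up of loci with adjacent codes. Of the 10 loci with codes from XLOC_005023 to XLOC_005032, 9 are among the 200 and 8 are among the 10 highest. The tenth, XLOC_005028, ranked 1199 of the XLOC loci. This range of codes was picked after the values were seen. XLOC_005027, the locus with the highest maximum, had 6887, 5866, 5089 and 4717 FPKM in callosal, 6458, 6383, 6205 and 7612 FPKM in subcerebral and 5404, 4469, 4175 and 3793 FPKM in corticothalamic neurons. XLOC_005026 had 6059, 5382, 4804 and 4913 FPKM in callosal, 6172, 5315, 5206 and 6461 FPKM in subcerebral and 4919, 3796, 3603 and 3588 FPKM in corticothalamic neurons. Both had their lowest value in corticothalamic neurons at every stage. Subcerebral and corticothalamic values did not overlap, and callosal values overlapped with the corticothalamic ones only through the E15 corticothalamic value.

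XLOC_005025 had 1322, 1171, 1122 and 1259 FPKM in callosal, 1094, 1348, 1709 and 2309 FPKM in subcerebral and 955, 889, 907 and 986 FPKM in corticothalamic neurons. XLOC_005029 had 1273, 1101, 936 and 798 FPKM in callosal, 1170.2, 1159, 1107 and 1058 FPKM in subcerebral and 961, 815, 777 and 632 FPKM in corticothalamic neurons. These differ in their course over stages: XLOC_005025 was highest at P1 in subcerebral neurons, whereas XLOC_005029 was highest at E15 in each class. All 9 loci passed in subcerebral over corticothalamic neurons, with log2 differences from 0.46 ± 0.09 for XLOC_005031 to 1.04 ± 0.24 for XLOC_005023 (limma-trend on log2(FPKM + 1), described with the counts of calls). In callosal over corticothalamic neurons 4 of the 9 passed in the higher direction, none passed in callosal over subcerebral neurons, and 4 passed as lower at P1 than at E15. Of all features, 14.7% passed as higher in subcerebral over corticothalamic and 15.3% in callosal over corticothalamic neurons. In callosal over subcerebral neurons 29.3% passed in either direction, and 33.6% passed as lower at P1. The run was picked after the values were seen, so its counts are a description. The subcerebral over corticothalamic comparison is the least stable one, with 5 of the 200 loci called without E16 and 5 without E18. The share of all features called fell there as well. As a description over 12 groups that share columns and scaling, Pearson's r of these loci with mt-Nd4, a mitochondrially encoded subunit of respiratory complex I, lay between 0.60 and 0.96, beside a median of -0.04 for the other 191 loci. mt-Nd4, the sole entry whose name starts with mt-, had 2065, 1701, 1413 and 1373 FPKM in callosal, 1938, 1751, 1807 and 1910.2 FPKM in subcerebral and 1667, 1290.1, 1127 and 992 FPKM in corticothalamic neurons. It too had its lowest value in corticothalamic neurons at every stage. The 9 loci together took from 2.64% to 4.84% of a group's summed FPKM and the other 191 from 1.28% to 1.77%.

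Outside that run, the highest loci were XLOC_003500 and XLOC_002097. XLOC_003500 had 1038, 1445, 1604 and 1508 FPKM in callosal, 801, 1514, 1857 and 1801 FPKM in subcerebral and 778, 987, 1267 and 1152 FPKM in corticothalamic neurons, and it rose at P1 over E15 by 0.76 ± 0.13 on the log2 scale (limma, adjusted p = 0.00108). XLOC_002097 had 75.8, 499.5, 415 and 482 FPKM in callosal, 55.8, 664, 783 and 333 FPKM in subcerebral and 62.99, 553, 496 and 304 FPKM in corticothalamic neurons. Its E15 value lay far below every later value in all 3 classes, and the difference of P1 over E15 was 2.49 ± 0.25 (limma, adjusted p = 6.51e-05).

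Each comparison was fitted with limma-trend on log2(FPKM + 1) over the 12 group values, with additive terms for class and stage. The fit took in every feature with at least 1 FPKM in at least 2 groups, and a feature was called at an adjusted p under 0.05. All 200 loci passed that filter, as their rule makes nearly certain. Without library values, such a p measures how evenly a difference held over the stages or classes, not the spread between libraries. Log2 differences are given with the standard error of the fit and, because 1 FPKM was added, understate the change of low loci. The rule of a high maximum favours loci with a high group, so the counts below are read against all features and not as a property of the loci. Where a locus reached the limit of the rule, 8.67 FPKM, in 1 class only, or at 1 or 2 stages only, the rule chose it through those groups. Its fitted differences for that class or those stages are then a description with no test.

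Between classes the loci were called about as often as other features. In callosal over subcerebral neurons 36 were higher and 23 lower, or 29.5%, beside 29.3% of all features tested (14.1% higher and 15.2% lower). In callosal over corticothalamic neurons 38 were higher and 31 lower, or 34.5%, beside 31.3% (15.3% higher and 16% lower). In subcerebral over corticothalamic neurons 38 were higher and 28 lower, or 33%, beside 27.5% (14.7% higher and 12.8% lower). In that comparison the loci called higher made up 57.6% of the calls, and 46.9% after quantile normalization of the columns. At least 1 of the 3 class comparisons was passed by 112 loci, 56% beside 53.3%. The median log2 difference over the 200 was 0.01, 0.03 and -0.00 in these comparisons, beside -0.01, 0.01 and -0.00 over all features.

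Large class differences were more frequent among the 200 than among all features, which is what a rule on the maximum favours. All features also include those with a maximum under 8.67 FPKM, and the 1 FPKM added understates the changes of low features. The part of level in the shares below was not tested. A difference of at least 1 on the log2 scale, together with a call, was found for 17 loci in callosal over subcerebral neurons, 8.5% beside 4.29% of all features. It was found for 21 loci in callosal over corticothalamic neurons, 10.5% beside 6.15%, and for 14 loci in subcerebral over corticothalamic neurons, 7% beside 3.6%. Over the 4 stages the classes did not overlap for 19 loci in callosal over subcerebral neurons, 9 higher and 10 lower, 9.5% beside 10.7% (5.13% higher and 5.57% lower). They did not overlap for 28 loci in callosal over corticothalamic neurons, 17 higher and 11 lower, 14% beside 15.7% (7.68% and 8.02%). In subcerebral over corticothalamic neurons there were 20 such loci, 16 higher and 4 lower, 10% beside 10.1% (5.41% and 4.65%). The counts by class depended on the stages used. Without E15 they were 98 in callosal over subcerebral, 81 in callosal over corticothalamic and 105 in subcerebral over corticothalamic neurons, and without E18 they were 21, 36 and 5. Without E16 they were 22, 32 and 5, and without P1 the count in subcerebral over corticothalamic neurons was 23. The share of all features called moved with them, to 44.3%, 32.7% and 44.9% without E15 and to 7.29%, 14.5% and 1.80% without E18.

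**Figure D2:**
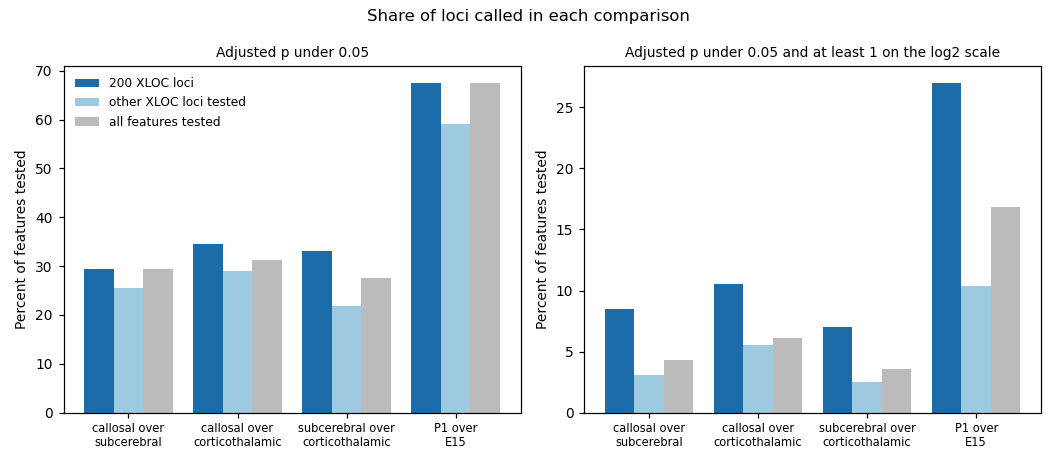
Percent of loci called in each comparison (left, adjusted p under 0.05; right, also at least 1 on the log2 scale) for the 200 XLOC loci, the 848 other XLOC loci tested and all 13946 features tested. The bars of the 200 lie near those of all features on the left (29.5% beside 29.3% in callosal over subcerebral neurons) and above them on the right (8.5% beside 4.29%).

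Loci were also grouped by the class in which they were highest. The single highest value was callosal for 71 loci, subcerebral for 78 and corticothalamic for 51, or 35.5%, 39% and 25.5%, beside 30.7%, 40.9% and 28.4% of all features. A locus was placed highest in a class where it was called higher in both comparisons with the other classes, and 21 loci met this in callosal neurons, 10.5% beside 7.06% of all features. In subcerebral neurons 10 loci met it, 5% beside 4.16%, and in corticothalamic neurons 14 loci, 7% beside 6.09%. The callosal loci were 0.21 to 2.73 higher than in subcerebral and 0.26 to 3.89 higher than in corticothalamic neurons on the log2 scale, and 18 of the 21 were highest in callosal neurons at each of the 4 stages. Leaving out E16 or E18 left 9 loci in each case. The share of all features called moved with the stages used, as given above, so this drop is not read as a property of the loci. Whatever the test, the highest value at each of the 4 stages was callosal for 26 of the 200 loci, 13% beside 12.6% of all features, subcerebral for 13, 6.5% beside 6.95%, and corticothalamic for 22, 11% beside 12.2%.

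XLOC_004056 and XLOC_003544 were named together with the rule, so their values are a description with no test. XLOC_004056 had 155, 207, 352 and 626 FPKM in callosal, 21.1, 27.1, 58.5 and 100.3 FPKM in subcerebral and 10.4, 11.1, 37.3 and 27.1 FPKM in corticothalamic neurons. Its callosal value was above every value of the other classes at all stages and grew at each step, and the fitted differences were 2.73 ± 0.19 over subcerebral and 3.89 ± 0.19 over corticothalamic neurons. XLOC_003544 had 34.2, 44.2, 41.6 and 43.5 FPKM in callosal, 3.02, 22.4, 31.2 and 33.4 FPKM in subcerebral and 0.29, 1.46, 2.14 and 1.13 FPKM in corticothalamic neurons. It was near the bottom of the scale in corticothalamic neurons throughout, while in subcerebral neurons it was low at E15 and came close to the callosal level by P1. The callosal over subcerebral difference of XLOC_003544 was 3.13 on the log2 scale at E15 and 0.37 at P1, and the callosal over corticothalamic difference was 4.28 ± 0.42 over all stages.

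XLOC_005143 had 51.7, 43.96, 40.3 and 30.4 FPKM in callosal, 7.31, 3.96, 8.86 and 10.4 FPKM in subcerebral and 2.89, 3.38, 6.83 and 6.29 FPKM in corticothalamic neurons. It was higher in callosal neurons by 2.34 ± 0.28 over subcerebral neurons and by 2.91 ± 0.28 over corticothalamic neurons (limma, adjusted p = 0.0011 and 0.000243). Its callosal value was lower at each later stage and still lay above every other group at P1. XLOC_003791 had 18.6, 28.97, 16.4 and 13.1 FPKM in callosal, 2.05, 4.79, 3.99 and 5.98 FPKM in subcerebral and 0.984, 2.68, 1.67 and 1.18 FPKM in corticothalamic neurons. It reached the limit of the rule in callosal neurons only. Its differences, a description with no test, were 1.97 ± 0.23 over subcerebral and 2.93 ± 0.23 over corticothalamic neurons. The callosal groups overlapped with neither of the other classes.

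XLOC_000024, XLOC_003743 and XLOC_000189 were callosal-high loci with a low start. XLOC_000024 had 2.62, 6.45, 12.6 and 13.1 FPKM in callosal, 0.658, 2.04, 5.05 and 3.05 FPKM in subcerebral and 0.155, 0.632, 1.76 and 1.25 FPKM in corticothalamic neurons. XLOC_003743 had 3.59, 7.69, 10.8 and 13.9 FPKM in callosal, 0.849, 2.97, 4.83 and 4.49 FPKM in subcerebral and 0.691, 1.33, 2.86 and 2.35 FPKM in corticothalamic neurons. At each stage callosal neurons were highest. The callosal values of both lay above all corticothalamic values, but the E15 callosal value lay below later subcerebral ones, so these ranges overlapped across stages. Both reached the limit of the rule in callosal neurons only, so their differences are a description with no test. In callosal over corticothalamic neurons the difference was 2.20 ± 0.15 for XLOC_000024 and 1.78 ± 0.13 for XLOC_003743. XLOC_000189 had 2.89, 4.90, 9.51 and 4.34 FPKM in callosal, 0.478, 1.06, 5.20 and 2.51 FPKM in subcerebral and 0.29, 0.694, 1.24 and 0.379 FPKM in corticothalamic neurons, with a peak at E18 in each class. It too reached the limit in callosal neurons only. Its callosal over corticothalamic difference of 1.89 ± 0.22 is a description with no test. XLOC_001227 was more even, with 23.5, 22.97, 22.6 and 26.6 FPKM in callosal, 9.85, 12.1, 7.82 and 5.36 FPKM in subcerebral and 15.5, 13.99, 14.1 and 10.7 FPKM in corticothalamic neurons. It was higher in callosal neurons by 1.40 ± 0.17 over subcerebral and by 0.78 ± 0.17 over corticothalamic neurons (limma, adjusted p = 0.0011 and 0.00979), and its lowest class was the subcerebral one.

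Microglial RNA also differed between the classes. The summed FPKM of 11 microglia genes lay between 9.50 and 57.7 in callosal neurons, against 9.45 to 34.05 in subcerebral and 11.4 to 21.7 in corticothalamic neurons. Of the 10 tested, 8 were called higher in callosal over subcerebral neurons, and 8 higher and 1 lower in callosal over corticothalamic neurons. Of all features, 14.1% were called higher in the first comparison, and 15.3% higher and 16% lower in the second. C1qa, a complement gene that microglia make, was at 0.533, 5.84, 3.09 and 2.78 FPKM in callosal neurons and at most at 0.0631 in subcerebral neurons. At E15, where the microglia sum was 9.50 FPKM in callosal, 9.45 in subcerebral and 11.4 in corticothalamic neurons, XLOC_005143 was at 51.7 FPKM in callosal neurons against 7.31 in subcerebral and 2.89 in corticothalamic neurons. The part of microglial RNA in the callosal results was not tested.

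**Figure D3:**
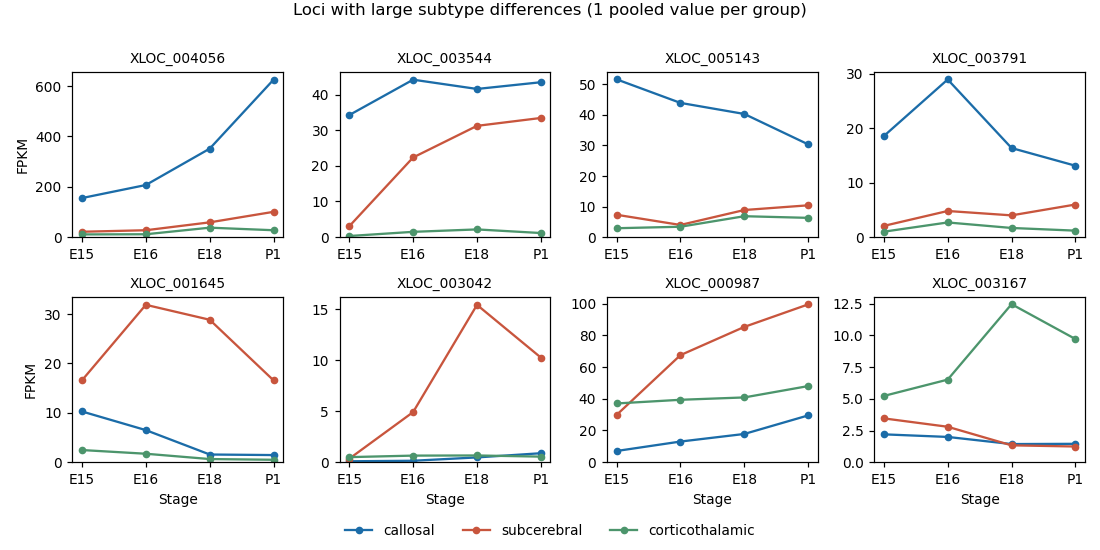
FPKM of 8 XLOC loci with large class differences at E15, E16, E18 and P1, on linear axes, 1 pooled value per group and no error bars. The top row is highest in callosal neurons at every stage, XLOC_001645 and XLOC_003042 peak in subcerebral neurons, XLOC_000987 is lowest in callosal neurons and XLOC_003167 is highest in corticothalamic neurons.

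The 10 loci placed highest in subcerebral neurons had log2 differences from -2.29 to -0.26 in callosal over subcerebral neurons and from 0.19 to 3.42 in subcerebral over corticothalamic neurons, and 7 were highest in subcerebral neurons at all 4 stages. With E15 left out there were 24 such loci, with E16 left out 2, with E18 left out 1 and with P1 left out 3. The share of all features called moved with the stages used, so these counts are not read as a property of the loci. XLOC_001645, the third locus named with the rule, had 10.3, 6.50, 1.57 and 1.45 FPKM in callosal, 16.6, 31.9, 28.8 and 16.6 FPKM in subcerebral and 2.47, 1.72, 0.646 and 0.499 FPKM in corticothalamic neurons. Subcerebral values lay above all values of the other classes, and the callosal values were lowest at E18 and P1. Its fitted differences, again a description, were -2.29 ± 0.38 in callosal over subcerebral and 3.42 ± 0.38 in subcerebral over corticothalamic neurons. The callosal over subcerebral difference was -0.64 at E15 and -3.54 at E18.

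XLOC_003042 had 0.0947, 0.146, 0.474 and 0.885 FPKM in callosal, 0.343, 4.92, 15.4 and 10.3 FPKM in subcerebral and 0.502, 0.651, 0.665 and 0.551 FPKM in corticothalamic neurons. It was under 1 FPKM in all callosal and corticothalamic groups and in subcerebral neurons at E15, and stood out in subcerebral neurons from E16 on. It passed the filter on low values only through the class in which it is high, so its fitted differences, -2.18 ± 0.51 in callosal over subcerebral and 1.96 ± 0.51 in subcerebral over corticothalamic neurons, are a description with no test. XLOC_001933 had 3.35, 4.34, 1.67 and 0.539 FPKM in callosal, 5.41, 9.52, 7.83 and 6.26 FPKM in subcerebral and 1.02, 1.37, 1.01 and 0.975 FPKM in corticothalamic neurons. It reached the limit of the rule in subcerebral neurons only, so its fitted differences are a description with no test. It was higher in subcerebral over corticothalamic neurons by 1.96 ± 0.26, with no overlap of these classes. XLOC_001386 had 56.96, 32.7, 24.1 and 18.8 FPKM in callosal, 97.2, 136, 66.3 and 61.2 FPKM in subcerebral and 43.6, 49.4, 43.1 and 51.6 FPKM in corticothalamic neurons. The callosal level of XLOC_001386 was lower at each later stage while the corticothalamic level lay between 43.1 and 51.6 FPKM, and the callosal over subcerebral difference was -1.46 ± 0.26 (limma, adjusted p = 0.00558; 0.0528 without E16 and 0.0525 without E18).

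Some loci were low in callosal neurons and present in both other classes. XLOC_000987 had 7.08, 13.03, 17.8 and 29.5 FPKM in callosal, 29.7, 67.5, 85.3 and 99.4 FPKM in subcerebral and 37.03, 39.3, 40.8 and 47.98 FPKM in corticothalamic neurons. Its log2 difference was -2.03 ± 0.24 in callosal over subcerebral and -1.40 ± 0.24 in callosal over corticothalamic neurons (limma, adjusted p = 0.00092 and 0.00314). XLOC_000989, 2 codes away, had 2.37, 2.61, 3.65 and 2.37 FPKM in callosal, 11.2, 15.8, 13.8 and 11.8 FPKM in subcerebral and 11.2, 9.49, 8.30 and 3.79 FPKM in corticothalamic neurons. Its callosal values lay below every value of the other classes, and its differences were -1.91 ± 0.22 in callosal over subcerebral and -1.22 ± 0.22 in callosal over corticothalamic neurons (limma, adjusted p = 0.000845 and 0.00384). In all, 13 loci were lowest in callosal neurons by both comparisons, 6.5% beside 7.69% of all features, and 7 were lowest in subcerebral neurons, 3.5% beside 3.85%.

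By both comparisons 17 loci were lowest in corticothalamic neurons, 8.5% beside 5.96% of all features and 2.12% of the 848 other XLOC loci. Of these 17, 4 belong to the run from XLOC_005023 to XLOC_005032, and lowest does not mean low: XLOC_005026 had its lowest corticothalamic value at 3588 FPKM. XLOC_003537 and XLOC_003902 were among the loci with the largest subcerebral over corticothalamic differences. XLOC_003537 had 7.94, 14.4, 24.97 and 32.3 FPKM in callosal, 5.76, 19.4, 35.1 and 33.002 FPKM in subcerebral and 5.01, 5.84, 8.79 and 10.999 FPKM in corticothalamic neurons, with a difference of 1.28 ± 0.24 (limma, adjusted p = 0.00923). XLOC_003902 had 68.4, 104, 107 and 102 FPKM in callosal, 65.97, 226, 249 and 198 FPKM in subcerebral and 44.9, 66.2, 86.6 and 83.6 FPKM in corticothalamic neurons, with a difference of 1.26 ± 0.20 (limma, adjusted p = 0.00609). In both the classes were close at E15 and apart from E16 on. Neither call held without E16 or without E18 (adjusted p from 0.0638 to 0.0952), nor did that of XLOC_003537 without P1 (adjusted p = 0.0592). Of the 12 loci with the largest called differences in subcerebral over corticothalamic neurons, 6 in each direction, 2 kept the call under every alternative.

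The 14 loci placed highest in corticothalamic neurons had log2 differences from -1.72 to -0.31 in callosal and from -1.56 to -0.37 in subcerebral over corticothalamic neurons. At all 4 stages 13 of them were highest in corticothalamic neurons. Without E16 the count was 2, without E18 it was 1, without P1 it was 5, and with no filter on low values it was 9. As the share of all features called also moved with the stages used, these counts are not read as a property of the loci. XLOC_003167 had 2.20, 2.00, 1.43 and 1.45 FPKM in callosal, 3.46, 2.80, 1.33 and 1.24 FPKM in subcerebral and 5.23, 6.51, 12.5 and 9.71 FPKM in corticothalamic neurons. Its corticothalamic values lay above all others, and the distance was largest at E18 and P1. It reached the limit of the rule in corticothalamic neurons only, so its fitted differences are a description with no test. They were -1.72 ± 0.31 in callosal over corticothalamic neurons and -1.56 ± 0.31 in subcerebral over corticothalamic neurons. The second did not pass without E16, E18 or P1.

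XLOC_004405 had 0.0485, 0.92, 3.93 and 4.06 FPKM in callosal, 0.074, 1.30, 4.86 and 4.76 FPKM in subcerebral and 0.988, 4.48, 9.33 and 12.8 FPKM in corticothalamic neurons. It combined a class and a stage pattern: at each stage corticothalamic neurons were highest, and in every class it was under 1 FPKM at E15. It reached the limit of the rule in corticothalamic neurons only. Its class differences, a description with no test, were -1.24 ± 0.11 in callosal and -1.05 ± 0.11 in subcerebral over corticothalamic neurons. XLOC_004474 had 1.69, 2.77, 4.60 and 10.1 FPKM in callosal, 4.12, 2.22, 2.11 and 3.69 FPKM in subcerebral and 8.35, 8.64, 9.63 and 17.4 FPKM in corticothalamic neurons, and its subcerebral over corticothalamic difference was -1.55 ± 0.29 (limma, adjusted p = 0.00959; 0.0808 without E16 and 0.0911 without E18). XLOC_001044 had 2.84, 3.98, 4.38 and 3.71 FPKM in callosal, 2.06, 10.95, 6.22 and 5.30 FPKM in subcerebral and 10.2, 11.3, 15.96 and 9.12 FPKM in corticothalamic neurons. Corticothalamic neurons were highest at every stage, by a margin that was small at E16. Its differences were -1.40 ± 0.26 in callosal over corticothalamic and -0.96 ± 0.26 in subcerebral over corticothalamic neurons (limma, adjusted p = 0.00477 and 0.0298), and the second did not pass without E18 or P1 (adjusted p = 0.18 and 0.0931). XLOC_001237 had 1.65, 3.80, 3.92 and 4.88 FPKM in callosal, 3.12, 6.27, 3.62 and 4.68 FPKM in subcerebral and 5.21, 11.4, 10.4 and 9.43 FPKM in corticothalamic neurons. It reached the limit of the rule in corticothalamic neurons only. Its differences, a description with no test, were -1.16 ± 0.14 in callosal and -0.89 ± 0.14 in subcerebral over corticothalamic neurons. The second did not pass without E16 or E18.

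XLOC_000660 had 5.14, 3.05, 1.35 and 0.437 FPKM in callosal, 14.04, 2.59, 0.568 and 0.326 FPKM in subcerebral and 9.88, 9.43, 8.99 and 2.54 FPKM in corticothalamic neurons. From E16 on it was highest in corticothalamic neurons, but the highest value of all was that of E15 subcerebral neurons, the group in which corticothalamic markers were also high. Its differences were -1.39 ± 0.40 in callosal and -1.29 ± 0.40 in subcerebral over corticothalamic neurons (limma, adjusted p = 0.0296 and 0.0446), and neither passed without E16, E18 or P1 (adjusted p from 0.0918 to 0.23). At P1 over E15 it was lower in all 3 classes, by a fitted log2 difference of -2.41 ± 0.46 (limma, adjusted p = 0.00184). The part of the corticothalamic marker level in this result was not tested. With no filter on low values the subcerebral over corticothalamic calls of XLOC_000660 and XLOC_001044 were also lost, and a fit on the 8 values of these classes made neither call.

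More loci were called between stages than between classes, at about the rate of all features. Between P1 and E15, 67 loci were higher and 68 lower, 67.5% beside 67.4% of all features tested (33.8% higher and 33.6% lower). The groups did not overlap for 108 loci, 54 in each direction, 54% beside 56.2% (27.6% higher and 28.5% lower). A change of at least 1 on the log2 scale was called for 29 loci that were higher and 25 that were lower at P1, 27% beside 16.8%. Leaving out a class left between 116 and 123 calls. Stage and any difference in how the groups of a stage were collected, prepared or sequenced cannot be told apart. The stages at which loci peaked were spread more evenly than in all features, and about as in the 848 other XLOC loci tested. The maximum was at E15 for 51 loci, at E16 for 39, at E18 for 39 and at P1 for 71. These are 25.5%, 19.5%, 19.5% and 35.5%, beside 31.6%, 13.3%, 13.3% and 41.7% of all features. In the other XLOC loci the shares were 25.5%, 19.7%, 22.6% and 32.2%. The more even spread is thus not particular to the loci described here. The rule ranked loci on this same maximum, so their peak stages are a description with no test.

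XLOC_000692 had 7.40, 10.2, 14.3 and 59.2 FPKM in callosal, 5.59, 8.90, 14.1 and 55.04 FPKM in subcerebral and 5.52, 7.45, 16.3 and 51.1 FPKM in corticothalamic neurons. The 3 classes ran together and most of the gain came after E18, with a difference of 2.98 ± 0.11 at P1 over E15 (limma, adjusted p = 1.71e-06). XLOC_001302 had 2.35, 9.29, 19.01 and 26.3 FPKM in callosal, 3.14, 9.89, 20.4 and 17.9 FPKM in subcerebral and 3.79, 12.2, 25.6 and 25.2 FPKM in corticothalamic neurons. It gained mainly before E18 in all classes, with a difference of 2.55 ± 0.14 (limma, adjusted p = 4.35e-06). XLOC_004405, described above, reached the limit of the rule at E18 and P1 only. Its P1 over E15 difference of 2.50 ± 0.13 is a description with no test.

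XLOC_003864 had 0.419, 7.95, 31.3 and 50.5 FPKM in callosal, 1.32, 7.13, 24.1 and 30.4 FPKM in subcerebral and 21.3, 24.9, 30.4 and 37.4 FPKM in corticothalamic neurons. It had the largest fitted difference of P1 over E15, 3.24 ± 0.71 (limma, adjusted p = 0.00379), which did not pass without subcerebral neurons (adjusted p = 0.0693). Its corticothalamic level was already high at E15, so that the gain was concentrated in callosal and subcerebral neurons. XLOC_004543 had 0.102, 0.376, 2.71 and 8.30 FPKM in callosal, 0.119, 0.345, 4.31 and 9.31 FPKM in subcerebral and 0.15, 0.194, 0.442 and 1.64 FPKM in corticothalamic neurons. It stayed low in corticothalamic neurons and reached its high values in the other classes at P1. It reached the limit of the rule at P1 only, so its P1 over E15 difference of 2.49 ± 0.41 is a description with no test.

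Among the loci that fell, XLOC_002202 had 105, 81.7, 64.6 and 25.5 FPKM in callosal, 121, 85.8, 52.4 and 21.3 FPKM in subcerebral and 135, 99.4, 70.97 and 25.4 FPKM in corticothalamic neurons. The 3 classes were close at each stage and every step was downward, with a difference of -2.27 ± 0.10 at P1 over E15 (limma, adjusted p = 3.42e-06). XLOC_005133 had 10.9, 5.05, 2.15 and 1.87 FPKM in callosal, 18.9, 6.71, 1.88 and 1.43 FPKM in subcerebral and 14.1, 7.06, 3.74 and 1.88 FPKM in corticothalamic neurons. Most of its loss was between E15 and E18. It reached the limit of the rule at E15 only, so its P1 over E15 difference of -2.49 ± 0.20 is a description with no test. XLOC_001158 had 9.00, 10.8, 5.55 and 2.38 FPKM in callosal, 10.9, 5.05, 1.57 and 0.511 FPKM in subcerebral and 5.49, 4.58, 1.48 and 0.28 FPKM in corticothalamic neurons, and it was the highest in callosal neurons from E16 on. It reached the limit of the rule at E15 and E16 only, so its P1 over E15 difference of -2.29 ± 0.26 is a description with no test.

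XLOC_000852 had 25.6, 14.2, 8.95 and 4.15 FPKM in callosal, 32.4, 14.7, 10.9 and 7.47 FPKM in subcerebral and 22.4, 22.2, 25.5 and 9.84 FPKM in corticothalamic neurons. In corticothalamic neurons it held its level until E18, whereas in callosal and subcerebral neurons it was already lower at E16, and the difference of P1 over E15 was -1.82 ± 0.29 (limma, adjusted p = 0.000702). XLOC_002824 had 0.281, 0.307, 0.463 and 0.241 FPKM in callosal, 8.74, 0.308, 0.23 and 0.212 FPKM in subcerebral and 4.81, 0.318, 0.336 and 0.206 FPKM in corticothalamic neurons. It was present at E15 in subcerebral and corticothalamic neurons and under 0.5 FPKM in every other group. It passed the filter on low values only through the stage at which it is high, so its fitted difference of P1 over E15, -1.77 ± 0.55, is a description with no test.

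**Figure D4:**
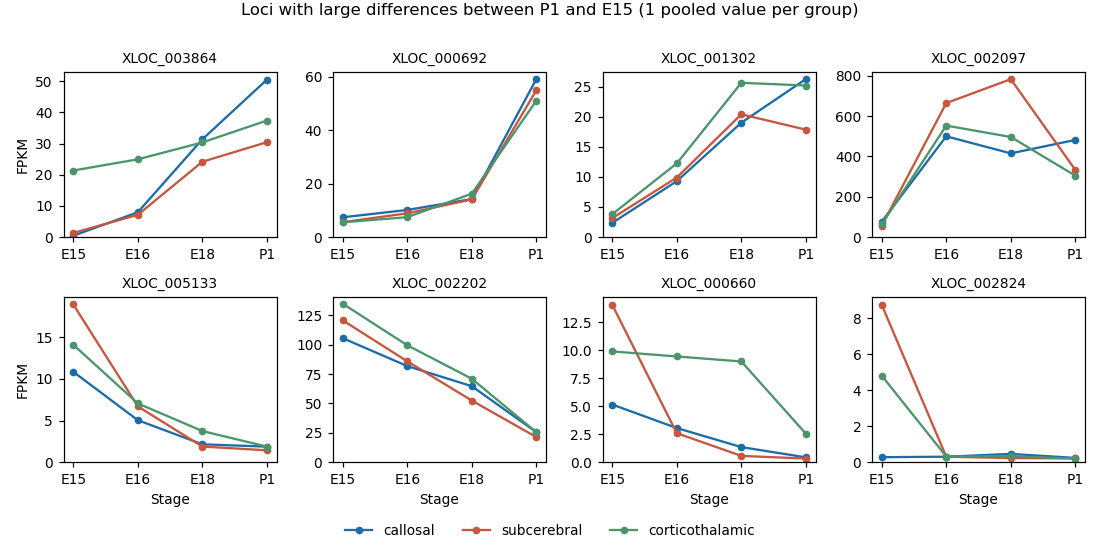
FPKM of 8 XLOC loci with large differences between P1 and E15, at 4 stages in the 3 classes, on linear axes, 1 pooled value per group and no error bars. The top row was called higher at P1; in the bottom row the P1 value lies below the E15 value in each class, with XLOC_000692 and XLOC_002202 moving alike in all classes and XLOC_003864 flattest in corticothalamic neurons.

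Classes differed in how many loci moved far over the whole period. Between P1 and E15, 39 loci were up and 25 down by at least 1 on the log2 scale in callosal neurons, 19.5% and 12.5% beside 10.4% and 6.47% of all features. In subcerebral neurons 39 were up and 30 down, 19.5% and 15% beside 14.1% and 11.6%. In corticothalamic neurons 14 were up and 32 down, 7% and 16% beside 8.72% and 6.54%. These are single values per group with no test. A rise at every step in all 3 classes was seen for 10 loci, 5% beside 8.39%, and a fall at every step for 13 loci, 6.5% beside 9.11%.

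Signs of other cell types moved with stage. Of 11 tested genes of proliferating cells and progenitors, 8 were called lower and 2 higher at P1 than at E15. Of all features, 33.6% were called lower and 33.8% higher in that comparison. Of 10 tested interneuron genes 1 was called higher at P1, namely Npy, a neuropeptide gene, with 15.6, 119, 233 and 394 FPKM in callosal, 8.13, 47.4, 149.8 and 415 FPKM in subcerebral and 81.5, 238, 517 and 687 FPKM in corticothalamic neurons. Dlx1, a transcription factor gene of interneurons, was at 19.99, 1.53, 0.901 and 0.877 FPKM in callosal neurons, so that the E15 callosal group stood apart. The part of these cells in the stage results was not tested.

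**Figure D5:**
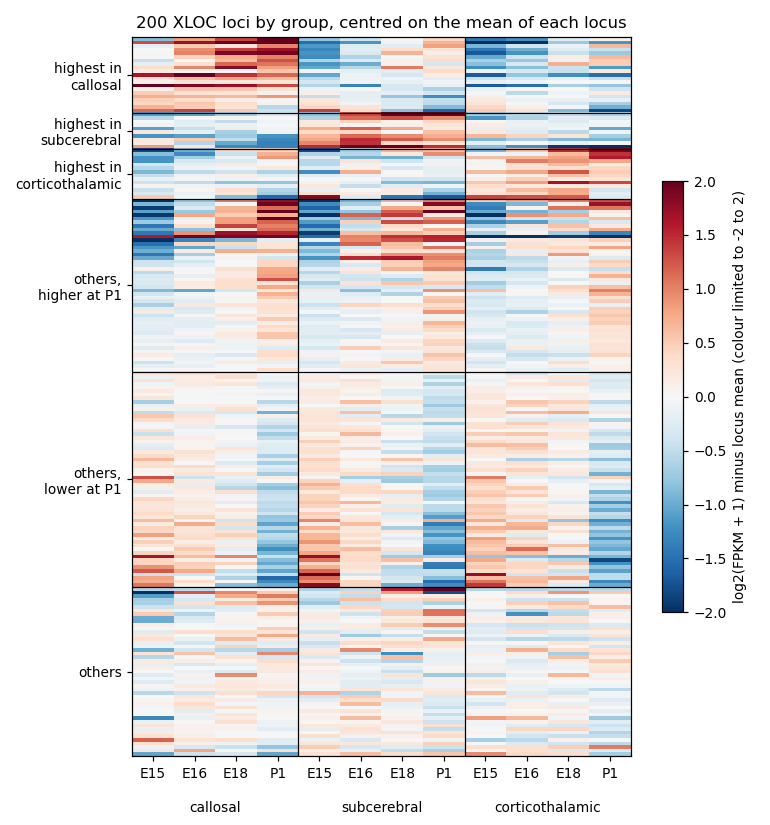
log2(FPKM + 1) of the 200 XLOC loci (rows) in the 12 groups (columns), minus the mean of each locus, with the colour limited to 2 in either direction. Rows are grouped into 21 loci highest in callosal, 10 in subcerebral and 14 in corticothalamic neurons, then 48 others higher at P1, 60 others lower at P1 and 47 others; most of the strong colour among the others runs along stage.

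The 3 loci named with the rule and XLOC_003167 were compared with 10439 named genes by Pearson's r over the 12 groups, as a description on log2(FPKM + 1), with columns and scaling shared. For XLOC_003544 the nearest were Pou3f1 (r = 0.994), a POU-domain transcription factor, Macrod2 (0.986) and Dok5 (0.978), an adaptor of receptor tyrosine kinases. Pou3f1 had 55.2, 52.3, 51.1 and 75.5 FPKM in callosal, 4.57, 33.9, 52.5 and 64.9 FPKM in subcerebral and 1.17, 2.73, 2.91 and 1.67 FPKM in corticothalamic neurons. In subcerebral neurons it was low at E15 and high from E16 on, as XLOC_003544 was. For XLOC_004056 they were Ptn (0.993), which encodes the secreted growth factor pleiotrophin, Grm2 (0.981), a metabotropic glutamate receptor, and Col9a3 (0.980), a collagen chain. Ptn had 84.5, 160.3, 262 and 416 FPKM in callosal, 12.7, 18.03, 40.1 and 49.6 FPKM in subcerebral and 6.42, 9.83, 24.9 and 16.9 FPKM in corticothalamic neurons. Like XLOC_004056 it was highest in callosal neurons and grew at each step there.

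For XLOC_001645 the nearest named genes were Siah3 (r = 0.998), Zc3h13 (0.953), a component of the RNA methylation machinery, and Cdv3 (0.943). Siah3 had 8.76, 6.19, 1.55 and 1.55 FPKM in callosal, 15.9, 29.4, 26.5 and 14.7 FPKM in subcerebral and 1.85, 2.04, 0.667 and 0.401 FPKM in corticothalamic neurons. Its level was close to that of XLOC_001645 in all 12 groups. For XLOC_003167 they were Dmxl2 (0.956), a regulator of the vesicular proton pump, Stac2 (0.955), an adaptor of voltage-gated calcium channels, and Phkg2 (0.955), a catalytic subunit of phosphorylase kinase. Dmxl2 had 25.99, 27.3, 29.5 and 23.9 FPKM in callosal, 33.8, 26.6, 28.5 and 24.03 FPKM in subcerebral and 41.7, 46.5, 60.8 and 63.3 FPKM in corticothalamic neurons, highest in corticothalamic neurons at each stage. With reads of overlapping or neighbouring transcripts not separable in these values, a likeness of 2 profiles does not show 2 transcripts.

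Long noncoding RNAs that have gene names were set beside the XLOC loci. Of 48 names in a list of such RNAs, 20 are in the table and 15 were tested. In callosal over subcerebral neurons 4 were higher and 2 lower, in callosal over corticothalamic neurons 2 were higher and 4 lower, in subcerebral over corticothalamic neurons 2 were higher and 1 lower, and at P1 over E15 5 were higher and 5 lower. The median log2 differences were -0.03, 0.04, -0.03 and 0.05. Of all features, 14.1% were called higher and 15.2% lower in callosal over subcerebral neurons. The shares were 15.3% and 16% in callosal over corticothalamic and 14.7% and 12.8% in subcerebral over corticothalamic neurons. At P1 over E15 they were 33.8% and 33.6%. Meg3, an imprinted noncoding RNA, had 138, 241, 328 and 579 FPKM in callosal, 685, 1177, 1138 and 1357 FPKM in subcerebral and 957, 919, 843 and 914 FPKM in corticothalamic neurons and was lower in callosal over subcerebral neurons by 1.90 ± 0.28 (limma, adjusted p = 0.0027). No callosal value of Meg3 reached a value of the other classes. Snhg12, the host of small nucleolar RNAs, was lower at P1 than at E15 by 1.82 ± 0.09, while Tug1 was at 36.4, 36.9, 37.3 and 35.2 FPKM in callosal, 30.1, 29.8, 32.02 and 29.8 FPKM in subcerebral and 30.4, 29.8, 32.5 and 35.3 FPKM in corticothalamic neurons.

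No call was made in any of the 4 comparisons for 26 of the 200 loci, 13% beside 15.4% of all features. XLOC_002161, one of the most even loci, was among them, with 15.1, 13.8, 13.6 and 15.9 FPKM in callosal, 14.5, 13.5, 12.2 and 13.4 FPKM in subcerebral and 13.1, 12.6, 12.7 and 16.6 FPKM in corticothalamic neurons. Its values covered a narrow range in each class. XLOC_000903 had 21.4, 21.9, 20.1 and 17.9 FPKM in callosal, 22.1, 22.6, 20.5 and 17.2 FPKM in subcerebral and 22.8, 22.02, 21.6 and 16.8 FPKM in corticothalamic neurons, and it was lower at P1 than at E15 by 0.34 ± 0.06 (limma, adjusted p = 0.000811) with no class difference called.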

How the data were processed

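The deposited table holds 32310 entries by 12 columns, 1 per stage and class, for 24 libraries in the labels (2 per group). The submitters' processing notes name TopHat2, Cufflinks and the mouse build mm9. Versions, annotation, strand use, how libraries were combined and whether they came from separate animals: not given in the sources used here. With no unit in its header, the deposited table was taken to hold FPKM from the use of Cufflinks and the range of the values, so depth is unknown and no counting interval is given. Per the labels' protocols, about 100000 sorted cells gave 200 ng of RNA with integrity numbers from 6.3 to 9, and poly(A) selection preceded library construction. Column sums ran from 355965 to 473871.

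A value per library had been planned for. Since the table has 1 value per group, limma-trend with robust moderation (limma 3.58.1, R 4.3.3) was fitted on log2(FPKM + 1) with additive class and stage terms, 12 values and 6 residual degrees of freedom, on 13946 features that had 1 FPKM or more in 2 columns or more, with Benjamini-Hochberg adjustment over all of them and 2-sided tests. Scripts were tested on simulated data. The members, the marker lists and the tests were chosen with earlier results of these data known. Loci were named by rule: the 3 given with the member rule, the 10 highest, the 6 largest called in each direction of each comparison, the 3 on either side of the limit, the 5 smallest and 5 largest ratios, and those listed at 0. Alternatives were other pseudocounts, filters, scalings, member rules, subsets of groups and fits.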

Additional observations from a re-analysis of the deposited data

How the results depend on the processing

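Of 94 alternative counts, 73 stayed within 1.5 times the reported one, and of 578 alternative values of single loci 524 kept direction and side of the threshold, 50 lost the call, 4 gained it and 0 reversed. Leaving out 1 stage gave 21 to 98 calls in callosal over subcerebral, 32 to 81 in callosal over corticothalamic and 5 to 105 in subcerebral over corticothalamic neurons, and leaving out 1 class gave 116 to 123 calls at P1 over E15. Without a stage, 9 to 31 loci were highest in callosal, 1 to 24 in subcerebral and 1 to 17 in corticothalamic neurons. Fewer values enter these fits, and the share of all features called in subcerebral over corticothalamic neurons was 2.37% without E16, 1.80% without E18 and 44.9% without E15. The fit on the 8 values of subcerebral and corticothalamic neurons called 42 loci in that comparison. With no filter 9 loci, and among the first 100 members 2 loci, were highest in corticothalamic neurons. With the 200 loci taken by their mean over the groups, of which 181 are the same, the calls were 52, 62, 59 and 132. The FPKM values keep no counts, so the precision of low values is unknown. No paired analysis was possible because the table holds 1 pooled value per group and no library numbers.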

Other observations

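A locus could move in opposite directions in different classes. XLOC_001048 had 20.3, 46.3, 57.3 and 50.9 FPKM in callosal, 54.7, 78.996, 54.6 and 44.5 FPKM in subcerebral and 92.002, 81.8, 48.1 and 30.5 FPKM in corticothalamic neurons. Between P1 and E15 it was 1.28 higher in callosal neurons and 1.56 lower in corticothalamic neurons on the log2 scale, with -0.29 in subcerebral neurons, so that the class order at E15 was turned round by P1. This difference has 1 value per group and was not tested. XLOC_003087 had 0, 32.98, 27.02 and 19.2 FPKM in callosal, 10.8, 18.7, 24.5 and 3.14 FPKM in subcerebral and 13.8, 17.6, 25.3 and 19.5 FPKM in corticothalamic neurons, and is listed at 0 in E15 callosal neurons, which can be a failed estimate.

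Loci with neighbouring codes were compared after the values were seen, leaving out the run from XLOC_005023 to XLOC_005032. Among the other members, 21 pairs have codes at most 2 apart. Their median Pearson's r over the 12 groups was 0.39, with a range of -0.70 to 0.97, and 4 pairs (19.05%) had an r of at least 0.8. Over all 18145 pairs of these members the median was 0.01 and 4.13% reached 0.8. XLOC_002167 with XLOC_002168 had the highest r, 0.97. The values share columns and scaling, and the table does not give the positions of the loci.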
